A study of Equus caballus with 32 samples.

Results

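ENSECAG00000014951 and ENSECAG00000003944 are horse genes that the study's pathway analysis lists by Ensembl identifier, because no symbol stood for them there. The first is listed under tryptophan metabolism. The second is listed under HIF-1 signaling and under glycolysis and gluconeogenesis, and also under the broader carbon metabolism and amino acid biosynthesis sets. They are 2 of the 30371 genes in the tables, and both were found in each of the 3 tables by their identifier. The members were chosen by values of these data. The pathway lists were built from the genes that passed the study's thresholds at 24 h vs. 0 h, so every value of that comparison is given here as a description, without a test.

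The samples were endometrium of 8 native pony mares in the follicular phase, taken at an abattoir, with 32 libraries in all. The 0 h group was the biopsy put into RNALater within hours of death, and the 24, 48 and 72 h groups were punch biopsies of the same uteri cultured for these periods, with 8 libraries at each time point. The cultured explants received no treatment and were kept in William's E medium with epidermal growth factor, antibiotics, amphotericin B, L-glutamine, insulin-transferrin-selenium and foetal bovine serum. Each horse gave a library at every time point. The age and reproductive history of the mares were unknown, mares with an inflamed uterus or category III histology were left out, and the 0 h biopsies came from a different collection step than the punches that were cultured, so removal, transport and culture cannot be told apart in the comparison with 0 h.

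Tryptophan is broken down mainly along the kynurenine pathway, which starts with the opening of its indole ring by a dioxygenase and ends in NAD synthesis, while a smaller part of it is used to make serotonin. In the uterus of several mammals the kynurenine pathway is known for its link to immune tolerance at the border between mother and conceptus. Glycolysis splits glucose to pyruvate, and gluconeogenesis runs several of the same enzyme steps in the opposite direction. HIF-1 is a transcription factor whose alpha subunit is degraded when oxygen is plentiful, and many glycolytic enzymes and the glucose transporter of most tissues are among its known targets. Which enzyme or protein each of the 2 genes encodes was not analysed here, since no table used here pairs the identifiers with a symbol, so neither a role nor a sequence nor a position is given for them.

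For each gene the authors' deposited tables hold a mean of the normalized counts of all 32 libraries, and for each pair of neighbouring time points a log2 fold change and its standard error. Levels at the single time points are reconstructed here by dividing that mean among the 4 time points in the ratios that the log2 fold changes set. A level obtained this way carries no standard deviation, and no value of a single horse was analysed here. Depth per library is not given in these tables, so the precision of each value is that of the deposited standard error. In bulk tissue, fewer cells of a type and less RNA per cell cannot be told apart. Markers of the cell types of the endometrium were not analysed here.

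The 2 genes differed widely in level, and at 24 h they departed from the biopsy in opposite directions. ENSECAG00000014951, the gene listed under tryptophan metabolism, was among the abundant transcripts of the biopsy and far less abundant in the cultured explants. Its reconstructed level, in mean normalized counts, was 3479 in the biopsy and then 36.8, 94.3 and 152 after 24, 48 and 72 h of culture. The level at 0 h stood far above the other 3, and among the cultured explants the level was lowest at 24 h and highest at 72 h. ENSECAG00000003944, the gene listed under glycolysis and HIF-1 signaling, had few counts throughout, with a level of 0.250 in the biopsy and of 1.93, 2.12 and 1.08 after 24, 48 and 72 h. Here the biopsy had the lowest level, 24 and 48 h lay close together, and 72 h lay between them and the biopsy.

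**Figure D1:**
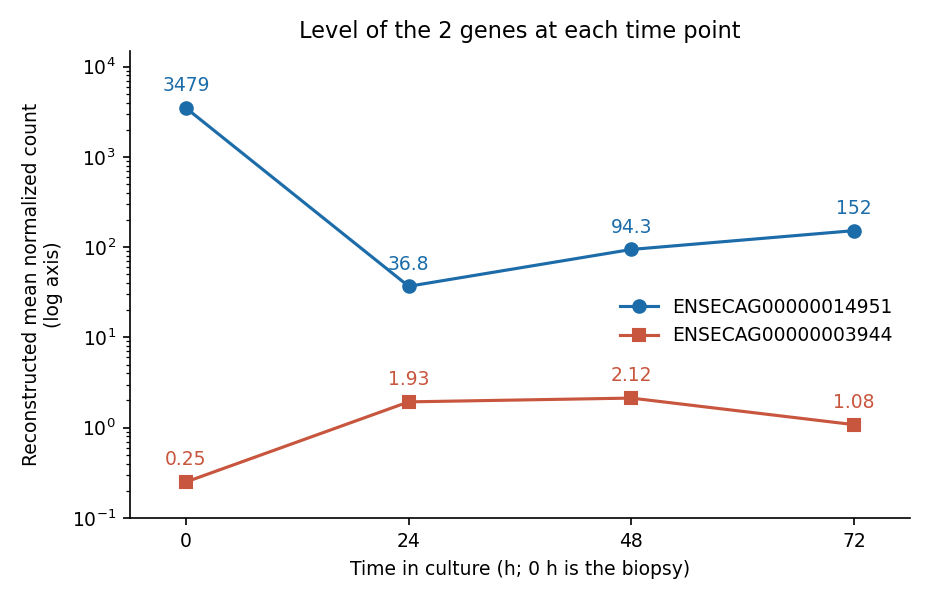
Reconstructed mean normalized count (vertical log axis) of ENSECAG00000014951 (circles) and ENSECAG00000003944 (squares) at 0, 24, 48 and 72 h; each point is 1 mean without an error bar, as no value per library was used. The first gene goes from 3479 at 0 h to 36.8 at 24 h and reaches 152 at 72 h, and the second stays at or below 2.12 at all 4 time points.

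At 24 h the level of ENSECAG00000014951 was 1.06% of that at 0 h, a 94.5-fold difference. The log2 fold change was -6.56 (standard error 0.41), with a 95% interval of -7.37 to -5.76. Of the 23640 genes tested, 2 had a lower log2 fold change in this comparison. One of these had a mean normalized count of 0.467 over all libraries and a standard error of 4.19, so its change was poorly determined. The other was of similar but lower abundance than ENSECAG00000014951, with levels of 3089 in the biopsy and 28.8 after 24 h. Its log2 fold change, -6.75 (standard error 0.45), differed from that of ENSECAG00000014951 by less than either standard error. In order of level among the 23640 genes, ENSECAG00000014951 stood at place 205 from the top in the biopsy, and at places 10997, 8821 and 7224 after 24, 48 and 72 h. It made up 0.0565% of all normalized counts at 0 h and 0.000504% at 24 h.

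At 24 h vs. 0 h, 3.90% of all genes tested were called higher and 4.99% lower. A call needs both an adjusted p-value under 0.05 and a log2 fold change of 2 or more in either direction. Both genes were among those called, as their listing had already fixed, ENSECAG00000003944 being higher and ENSECAG00000014951 lower at 24 h. The median log2 fold change of all genes tested was -0.12. ENSECAG00000003944 had a log2 fold change of 2.95 (standard error 1.08), a 7.72-fold difference, and 425 of the 23640 genes had a higher one. Its 95% interval, 0.83 to 5.06 on the log2 scale, reached from 1.78-fold to 33.5-fold.

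**Figure D2:**
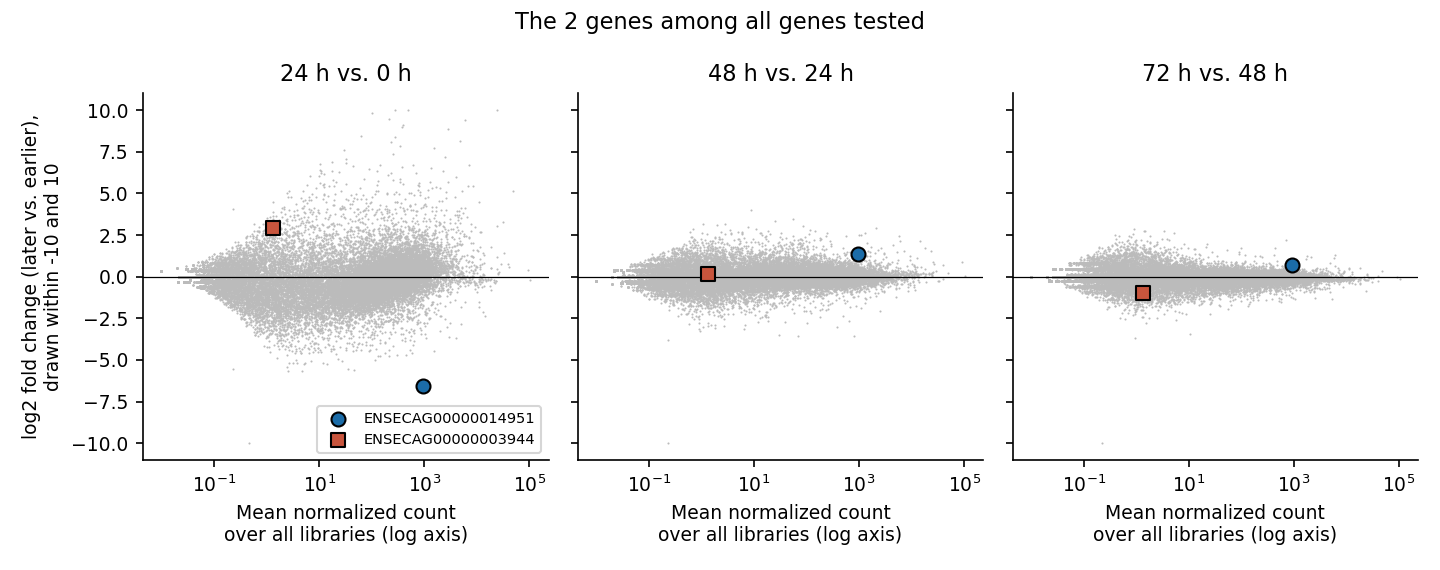
log2 fold change (later against earlier time point, clipped at 10 on either side of 0) against the mean normalized count over all libraries (log axis) for the 23640 genes tested, in grey, with the 2 genes marked. At 24 h vs. 0 h ENSECAG00000014951 lies at -6.56, at the lower edge of all genes, while ENSECAG00000003944 lies at 2.95 among genes of low counts.

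The comparison of 48 h with 24 h asks whether expression settles once the tissue is in culture. ENSECAG00000014951 rose between these time points, from a reconstructed mean of 36.8 to 94.3. The log2 fold change was 1.36 (standard error 0.41), with a 95% interval of 0.54 to 2.17. In the two-sided Wald test, adjusted over all genes by Benjamini-Hochberg, it gave an adjusted p-value of 0.0264. The cutoff of 2 on the log2 fold change lay within this interval and was not reached, so the gene was not called. With the adjusted p-value alone, 5.27% of the genes tested passed in this comparison, 2.72% being higher and 2.55% lower at 48 h, and 0.402% were called with the cutoff as well. Among 13618 genes averaging 10 or more normalized counts, 176 had a higher log2 fold change than ENSECAG00000014951. The rise did not pass with a t distribution, where the adjusted p-value was 0.0700 with 28 and 0.0899 with 21 degrees of freedom, or with the Benjamini-Yekutieli adjustment, where it was 0.281. The 24 h libraries also entered the comparison that chose the gene, and an error in the 24 h mean moves the 2 comparisons in opposite directions. A gene chosen for a low level at 24 h is thus favoured to lie higher at 48 h. The p-values of this comparison do not account for that choice.

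For ENSECAG00000003944 the levels at 24 and 48 h, 1.93 and 2.12, did not differ beyond their error. The log2 fold change was 0.14 (standard error 0.88), and the Wald test gave an adjusted p-value of 1. The 95% interval reached from -1.58 to 1.86, which spans levels at 48 h from 0.334 to 3.63 times that at 24 h. At this count a change anywhere in this range, in either direction, remained possible. This gene has no adjusted p-value in the authors' deposited tables of the last 2 comparisons. Its mean over all libraries, 1.34, was under the lowest mean with such a value, which was 3.69 and 2.01 in these tables against 0.479 at 24 h vs. 0 h.

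The comparison of 72 h with 48 h shares no time point with the one that chose the genes, although all libraries entered 1 fit and share its estimate of the spread. ENSECAG00000014951 had reconstructed means of 94.3 and 152 there, which is a log2 fold change of 0.69 (standard error 0.41), with a 95% interval of -0.11 to 1.49. The Wald test gave an unadjusted p-value of 0.0891 and, adjusted by Benjamini-Hochberg, a value of 1. Of the 23640 genes, 0% passed after adjustment in this comparison and 917 had an unadjusted p-value under 0.05, and with the authors' deposited adjusted p-values 3 genes passed. Among the same 13618 genes, 118 had a higher log2 fold change than ENSECAG00000014951. ENSECAG00000003944 went from 2.12 to 1.08, a log2 fold change of -0.98 (standard error 0.94), with a 95% interval of -2.82 to 0.86 and an unadjusted p-value of 0.297 in the Wald test.

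**Figure D3:**
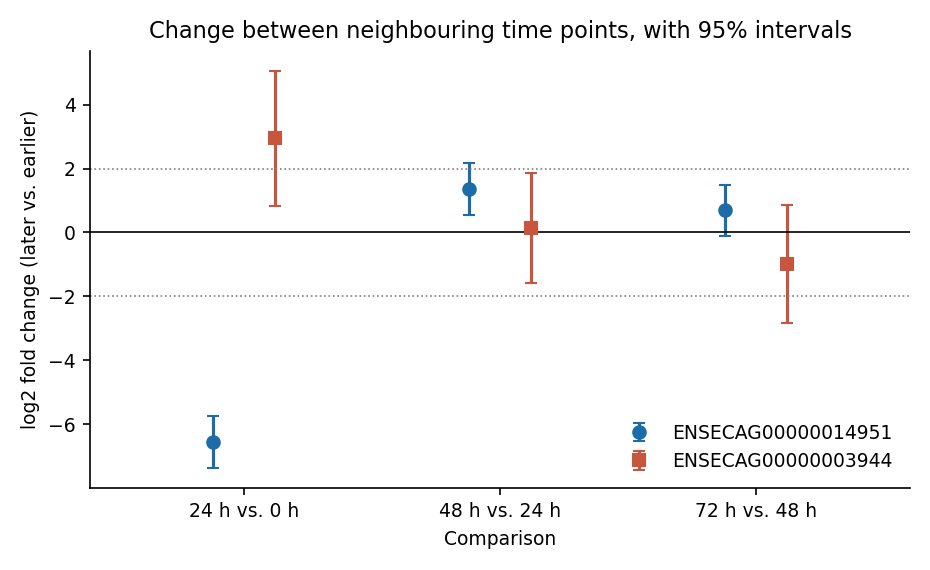
log2 fold change (vertical axis, later against earlier time point) of the 2 genes in the 3 comparisons, with bars for the 95% interval from the deposited standard error and dotted lines at the cutoffs of -2 and 2. The values at 24 h vs. 0 h, -6.56 and 2.95, chose the genes and are shown as a description. The interval of ENSECAG00000014951 lies above 0 at 48 h vs. 24 h and includes 0 at 72 h vs. 48 h, and that of ENSECAG00000003944 includes 0 in the last 2 comparisons.

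Chained over the last 2 comparisons, the level of ENSECAG00000014951 at 72 h was 4.14 times that at 24 h, a log2 fold change of 2.05. This value is a description, since it is measured from the 24 h level that entered the choice of the gene, and a gene chosen for a low level at 24 h is favoured to lie higher later. The tables give no covariance between comparisons. The standard error of the sum could be at most 0.82, which gives a 95% interval of 0.44 to 3.66. Rebuilt from the reconstructed levels as set out below, with time points taken as independent, the standard error was 0.41 and the interval 1.24 to 2.86. The chained values against 0 h contain the estimate that chose the gene and are descriptions too. At 72 h the level was 4.38% of the level at 0 h, a 22.9-fold difference with a chained log2 fold change of -4.51 and a widest possible 95% interval of -6.93 to -2.10. At 48 h it was 2.71% of the level at 0 h, with a chained log2 fold change of -5.21.

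For ENSECAG00000003944 the chained log2 fold change against 0 h was 3.09 at 48 h and 2.11 at 72 h, again with the estimate that chose the gene as a part of it and without a test. Rebuilt in the same way from the reconstructed levels, with time points taken as independent, the standard errors were 1.30 and 1.34. The 95% interval was then 0.55 to 5.63 at 48 h and -0.52 to 4.74 at 72 h. These errors rest on the reconstructed level of 0.250 at 0 h, and the same horses gave the libraries of all time points. The highest standard errors that the tables allow were 1.96 and 2.90. At its highest level, at 48 h, 34.3% of the genes tested had a lower level than ENSECAG00000003944, and at 0 h 19.1% had.

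The errors of the 2 genes had different make-ups. For a count fit with 8 libraries at each time point, the part of the squared standard error that comes from counting reads can be computed from the reconstructed levels, if a normalized count is taken as 1 read. For ENSECAG00000014951 counting gave 4.23, 5.72 and 2.70% of it in the 3 comparisons, from the earliest to the latest. The remainder corresponds to a coefficient of variation between libraries of the same time point of 55.7, 55.8 and 55.6% in these comparisons, which share libraries and 1 fit. For 8864 genes averaging 100 or more normalized counts, the median at 24 h vs. 0 h was 21.4%. ENSECAG00000014951 therefore varied more between libraries than most genes of high counts, and 97.0% of these genes had a smaller standard error at 24 h vs. 0 h. Whether a term for the horse entered the fit is not given in the sources used here, so this spread may or may not contain the differences between horses.

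For ENSECAG00000003944 the reconstructed level at 0 h, 0.250, would amount to 2.00 normalized reads over all 8 libraries together, against 15.4, 17.0 and 8.62 after 24, 48 and 72 h. At so low a level the fitted changes need not be ratios of mean counts, so the reads counted at 0 h may differ from this. Counting alone gave 33.4 and 41.3% of the squared standard error in the 2 later comparisons. At 24 h vs. 0 h counting alone would, at the reconstructed levels, give a standard error of 1.08 on the log2 scale. This is as large as the deposited one and leaves nothing for variation between libraries. With the variance beyond counting that the other comparisons gave, the standard error from the reconstructed levels at 24 h vs. 0 h was 1.30. The 95% interval of the log2 fold change was then 0.40 to 5.50. The deposited standard error would follow from a level of 0.504 at 0 h in place of 0.250. By default DESeq2 lets no fitted mean fall under 0.5 during the fit. This floor can bear on log2 fold changes as well as on standard errors. Whether the authors kept this default is not given in the sources used here, and its part in these values was not tested. The level at 0 h that gives the deposited standard error was also computed for other genes. For 95 genes with a reconstructed level of 0.1 to 0.4 at 0 h and of at least 1 at the other time points, the median level that gives the deposited standard error was 0.555 (quartiles 0.519 and 0.616), against a median reconstructed level of 0.303. For 341 genes with a reconstructed level of 1 to 2 at 0 h, and of at least 1 later, these medians were 1.57 and 1.51. Genes were left out of both sets where the variance beyond counting or the level sought did not come out positive. What causes the difference between these levels, in either set, was not tested.

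**Figure D4:**
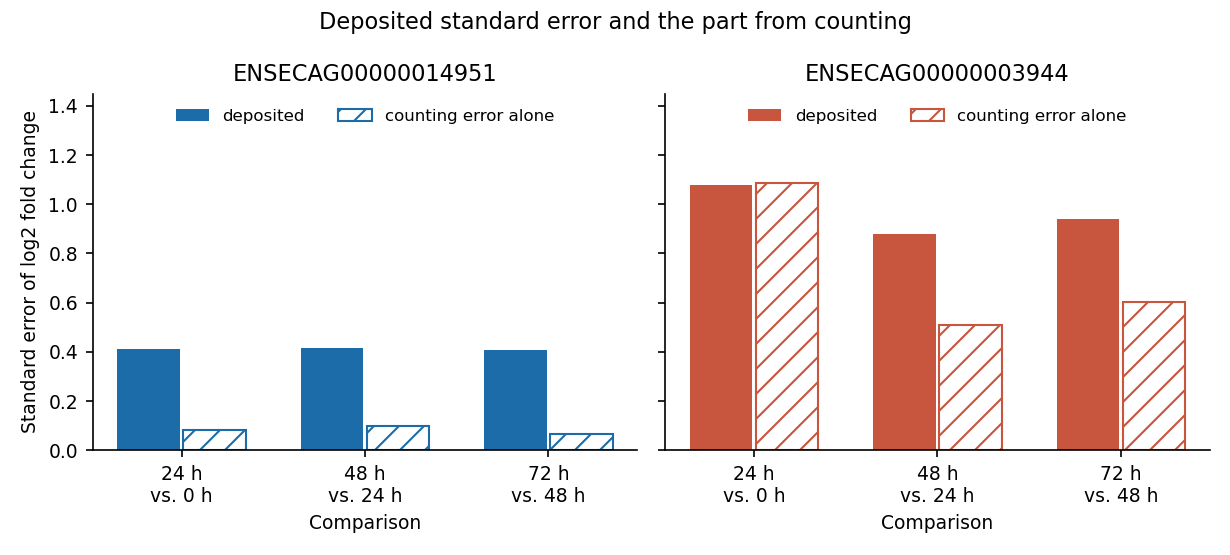
Deposited standard error of the log2 fold change (filled bars) and the standard error that counting reads alone would give at the reconstructed levels (hatched bars), for each gene and comparison. Counting gives a small part for ENSECAG00000014951, at most 0.10 against deposited values of 0.41, and the whole of it for ENSECAG00000003944 at 24 h vs. 0 h, where both are 1.08.

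The genes most like each of the 2 were sought over the 3 log2 fold changes, among genes averaging 50 or more normalized counts. For ENSECAG00000014951 the nearest of 10792 genes was ENSECAG00000013893, at a Euclidean distance of 1.71 on the log2 scale, with levels of 392 in the biopsy and of 12.4, 21.04 and 39.6 after 24, 48 and 72 h. The next was ENSECAG00000017407 at a distance of 1.96, with levels of 820, 31.5, 124 and 209 in the same order. Both had their highest level in the biopsy and their lowest at 24 h, as ENSECAG00000014951 did, which a search over these same changes favours. At 24 h vs. 0 h, however, their log2 fold changes were -4.98 (standard error 0.53) and -4.70 (standard error 0.39). Both distances are larger than any standard error of ENSECAG00000014951, so neither gene is a close match.

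ENSECAG00000003944 had closer neighbours among the 10793 genes searched. ENSECAG00000016505 lay at a distance of 0.34, with levels of 15.4 in the biopsy and of 105, 97.6 and 54.7 after 24, 48 and 72 h. ENSECAG00000023771 lay at 0.35, with levels of 56.8, 417, 370 and 208. The log2 fold changes of these genes at 72 h vs. 48 h were -0.84 (standard error 0.28) and -0.83 (standard error 0.22). The distances are smaller than any standard error of ENSECAG00000003944, so its own pattern was not known to this precision, and the order of its neighbours rests on it.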

How the data were processed

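RNA of 32 endometrial samples was sequenced by the authors with a stranded poly-A kit. Per the labels and the study's methods, reads were checked with FastQC 0.11.2, trimmed, mapped to EquCab3.0 with Bowtie2 2.2.3 and TopHat2 2.0.14, counted per Ensembl gene with FeatureCounts and fitted with DESeq2. The deposited tables hold only the authors' comparisons. The mean normalized count is a signal the authors averaged over all libraries after division by size factors. The deposited log2 fold changes and standard errors are on the log2 scale. The deposited Wald statistic is a score, their quotient. The p-values and adjusted p-values are the authors' own. All 23640 genes with a mean above 0 had a p-value.

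The software was Python 3.11.15, scipy 1.17.1, numpy 2.4.6, pandas 2.3.3 and, for the figures, matplotlib 3.10.9. From each estimate and its standard error a two-sided Wald p-value was computed again, which differed from the deposited one by at most 4.5e-15. The Benjamini-Hochberg adjustment was made over the 23640 genes. A call needed an adjusted p-value under 0.05 with a log2 fold change of 2 or more in either direction. No model was fitted to samples, and values per library were not analysed here. The functions were tested on simulated data. Named genes are the 2 members and, for each, the 2 nearest in the 3 log2 fold changes among genes with a mean of at least 50. Members and lists were chosen with earlier results of these data known. The lists of tryptophan, glycolysis, HIF-1 and cell type marker genes were not used, since 0 identifiers matched the gene reference, which is of another assembly. The standard errors computed from reconstructed levels were chosen after seeing the data. Each p-value sets an estimated change against its standard error under the authors' fit to the libraries of 8 horses. Whether that error contains the differences between horses is not known.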

Additional observations from a re-analysis of the deposited data

How the results depend on the processing

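No paired analysis was possible because the tables hold comparisons over all libraries and no values per library, so the horse could not be added as a block and no library could be left out. The adjusted p-value of ENSECAG00000014951 at 48 h vs. 24 h was 0.0264. It was 0.0700 and 0.0899 with t distributions of 28 and 21 degrees of freedom and 0.281 with the Benjamini-Yekutieli adjustment, and 0.0157 to 0.0191 over smaller sets of genes. None of these values accounts for the choice of the gene, in which the 24 h libraries took part. For both genes at 72 h vs. 48 h, and for ENSECAG00000003944 at 48 h vs. 24 h, no alternative that was run passed. Limiting the adjustment to genes with a mean of at least 10, or at 48 h vs. 24 h and 72 h vs. 48 h to those with a deposited adjusted p-value, removes ENSECAG00000003944 and gives no value for it. The number of genes called at 24 h vs. 0 h was 2101 and became 1372 with a mean of at least 10 and 5704 with a cutoff of 1. At 48 h vs. 24 h it was 95 and became 409 with a cutoff of 1, which includes ENSECAG00000014951, 57 with a t distribution of 21 degrees of freedom and 51 with the Benjamini-Yekutieli adjustment. At 72 h vs. 48 h it was 0 in every alternative run. With the mean over all libraries taken as a geometric mean, the levels of ENSECAG00000014951 became 15807, 167, 428 and 692 at 0, 24, 48 and 72 h, which leaves their ratios as they were by construction, and those of ENSECAG00000003944 moved by less than a standard error. A level of 15807 in 8 of the 32 libraries is more than an arithmetic mean of 941 over all libraries allows. This 0 h level is therefore not a possible one if the deposited mean is arithmetic. Of the 2 nearest genes, 1 of 2 was kept for each gene with distances in standard errors. With a minimum mean of 10, 1 was kept for ENSECAG00000014951 and 2 for ENSECAG00000003944. An outlying count of a single library could not be seen in these tables.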
